A study of Mus musculus with 12 samples.

Results

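Serpina3n and 6 companions of the acute-phase response were followed across irradiation and parathyroid hormone (PTH) treatment in mouse bone marrow. The 7 genes were Serpina3n, Serpina3g and Serpina3f, from the mouse cluster of genes related to human SERPINA3, together with Saa3, Hp, Cp and Socs3. Serpina3n was chosen because it had the largest rise with irradiation in these data, so its irradiation values are given as a description with no test. The other members were chosen by name. Array rows carrying a single symbol were found for 5 of the 7 members, among 19938 genes in all, and Serpina3g and Serpina3f are not analysed here.

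Total RNA of whole marrow, flushed out of long bones of B6 mice, was measured on 12 microarrays, 3 in each of 4 groups. The irradiated PTH and irradiated vehicle groups were irradiated sub-lethally when 10 days old, with 310 cGy in each of 2 fractions, and the nonirradiated PTH and nonirradiated vehicle groups did not. PTH, the hormone of calcium balance that stimulates osteoblasts when injected in pulses, or vehicle was given for 5 days, on days 11 to 15, and marrow was taken at 16 days of age. The labels state no genetic change in any group. They do not tell if each array is 1 mouse or a pool, and p-values therefore cover the spread between arrays only, part of which may be technical.

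Acute-phase proteins are secreted plasma proteins whose genes are switched on in liver, and in other tissues such as fat and macrophages, by cytokines of the interleukin-6 (IL-6) and interleukin-1 families and by glucocorticoids. IL-6 family cytokines bind receptors that share the subunit gp130, activate JAK kinases and the transcription factor STAT3, and so induce acute-phase genes as well as Socs3, whose product binds gp130 and shuts the signal off. Serpina3n encodes a secreted inhibitor of serine proteases, granzyme B among its targets in the mouse. Hp encodes haptoglobin, which binds free haemoglobin, Cp encodes ceruloplasmin, a copper-carrying ferroxidase, and Saa3 encodes a serum amyloid A protein made mainly outside the liver.

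The arrays also differed in sex pattern and in their range of values. By Xist and Y-linked genes, 3 of 3 nonirradiated PTH arrays and 0 of 3 nonirradiated vehicle arrays had a female pattern, and replicate 1 was the only such array in each irradiated group. Sex pattern is therefore partly tied to irradiation within each treatment. With sex as a term, irradiation calls in limma's test numbered 200 in PTH-treated and 304 in vehicle-treated mice, against 485 and 442 without. Irradiated PTH replicate 3 and nonirradiated vehicle replicate 3 had interquartile ranges of 2.88 and 2.86 on the log2 scale, against 3.13 to 3.25 on the other arrays. Whole marrow is a mixture, so more or fewer cells of a type and more or less RNA per cell cannot be told apart in any value below.

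The promoter sequences next to the start sites of 4 genes are shown because the RNA of these genes differed with irradiation in unlike ways. Serpina3n was higher and its cluster neighbour Serpina3b lower after irradiation, Socs3 rose, and Saa3 did not pass the test. Any relation of the sequences to these values was not tested. Each is the 250 bases before the annotated start, from RefSeq's promoter table of build GRCm38.p6, written 5′ to 3′ in the direction of the gene. The Serpina3n window lies at chr12:104406458-104406707 on the plus strand and the Serpina3b window at chr12:104127746-104127995 on the plus strand. Capitals mark an 18-base stretch that both windows hold.

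Serpina3n: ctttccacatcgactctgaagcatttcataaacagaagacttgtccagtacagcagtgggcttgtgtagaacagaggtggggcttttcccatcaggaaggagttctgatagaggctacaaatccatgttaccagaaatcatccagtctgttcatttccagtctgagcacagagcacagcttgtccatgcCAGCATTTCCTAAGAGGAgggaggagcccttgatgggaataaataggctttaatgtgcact

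Serpina3b: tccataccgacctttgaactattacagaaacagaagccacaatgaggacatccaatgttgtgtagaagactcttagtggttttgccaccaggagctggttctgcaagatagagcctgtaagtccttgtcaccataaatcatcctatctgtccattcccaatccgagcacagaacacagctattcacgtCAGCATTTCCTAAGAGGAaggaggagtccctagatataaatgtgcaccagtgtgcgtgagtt

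This stretch begins 61 bases before the start of Serpina3n and 62 bases before that of Serpina3b, and it is the longest that these windows share. It was found in 3 of 32851 windows in the table, on either strand, the remaining one being that of Serpina3c. Serpina3c, which is not analysed here, shares a longer stretch of 64 bases with Serpina3n. The Socs3 window lies at chr11:117969367-117969616 on the minus strand, with the STAT motif in capitals, and the Saa3 window at chr7:46715677-46715926 on the minus strand, with the C/EBP motif in capitals.

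Socs3: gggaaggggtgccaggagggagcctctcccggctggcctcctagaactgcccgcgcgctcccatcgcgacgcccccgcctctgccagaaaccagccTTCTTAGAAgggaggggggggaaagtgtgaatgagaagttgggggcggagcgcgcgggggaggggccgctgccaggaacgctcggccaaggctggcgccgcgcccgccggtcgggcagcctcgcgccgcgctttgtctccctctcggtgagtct

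Saa3: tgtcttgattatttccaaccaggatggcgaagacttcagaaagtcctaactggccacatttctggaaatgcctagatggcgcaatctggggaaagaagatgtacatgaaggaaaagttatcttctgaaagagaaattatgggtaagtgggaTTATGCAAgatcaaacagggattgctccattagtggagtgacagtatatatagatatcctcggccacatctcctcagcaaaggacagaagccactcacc

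The motifs searched on both strands were TTCNNNGAA for STAT factors and TTGCNNAA for C/EBP factors, where N is any base. The STAT motif occurred in 7.02% and the C/EBP motif in 9.56% of the 32851 windows. Socs3 held 1 STAT match, which begins 154 bases before its start, and Saa3 held 1 C/EBP match, which begins 99 bases before its start. Neither window held a match of the other motif, so none overlapped. The Serpina3n window held 0 matches of either motif, and 1 of the 2 windows of Cp held 1 C/EBP match. Among genes described below, Steap4 held 1 STAT and 1 C/EBP match, and Il6, Serpina3b and Mt2 held 1 C/EBP match each. Cish, Osmr, Pim1, Mt1, Il1rn and Serpina3a held none. The promoter table has no window for Hp, Socs2, Osm, Cfb, C4b or Serping1, so these could not be searched. These matches describe the letters in the windows.

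Serpina3n was far higher in irradiated than in nonirradiated marrow, which is what it was chosen for. Its log2 expression was 9.67, 8.86 and 8.51 on the irradiated PTH arrays and 10.07, 9.79 and 10.01 on the irradiated vehicle arrays, against 5.63, 5.39 and 5.50 on the nonirradiated PTH arrays and 5.77, 5.66 and 5.61 on the nonirradiated vehicle arrays. All 6 irradiated arrays lay above all 6 nonirradiated ones, the nearest being irradiated PTH replicate 3. The difference was 3.51 (SE 0.231) in PTH-treated mice, which is 11.4-fold, and 4.28 (SE 0.231) in vehicle-treated mice, which is 19.4-fold. In the ranking of rises in PTH-treated mice, the Y-linked gene Eif2s3y, at 3.69, stood just above Serpina3n, and Ccl12, a chemokine of monocytes, at 3.46, just below it; the nonirradiated PTH arrays all had the female pattern. In vehicle-treated mice Ccl12, at 3.68, and Lipg, endothelial lipase, at 3.48, stood just below Serpina3n.

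The same values of Serpina3n can be read by sex pattern, again only as a description, since they entered its choice. The female-pattern arrays gave 9.67 in irradiated PTH and 10.07 in irradiated vehicle marrow, against 5.39 to 5.63 in nonirradiated PTH marrow. The male-pattern arrays gave 8.51 to 10.01 in irradiated marrow, against 5.61 to 5.77 in nonirradiated vehicle marrow. Serpina3n lay in a narrow band in nonirradiated marrow of both kinds, and its spread between arrays was widest in irradiated PTH marrow, with an SD of 0.600, against 0.146, 0.117 and 0.0816 in the irradiated vehicle, nonirradiated PTH and nonirradiated vehicle groups (n = 3 each). Whether its array row also picks up RNA of near-identical neighbours of the cluster was not tested.

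**Figure D1:**
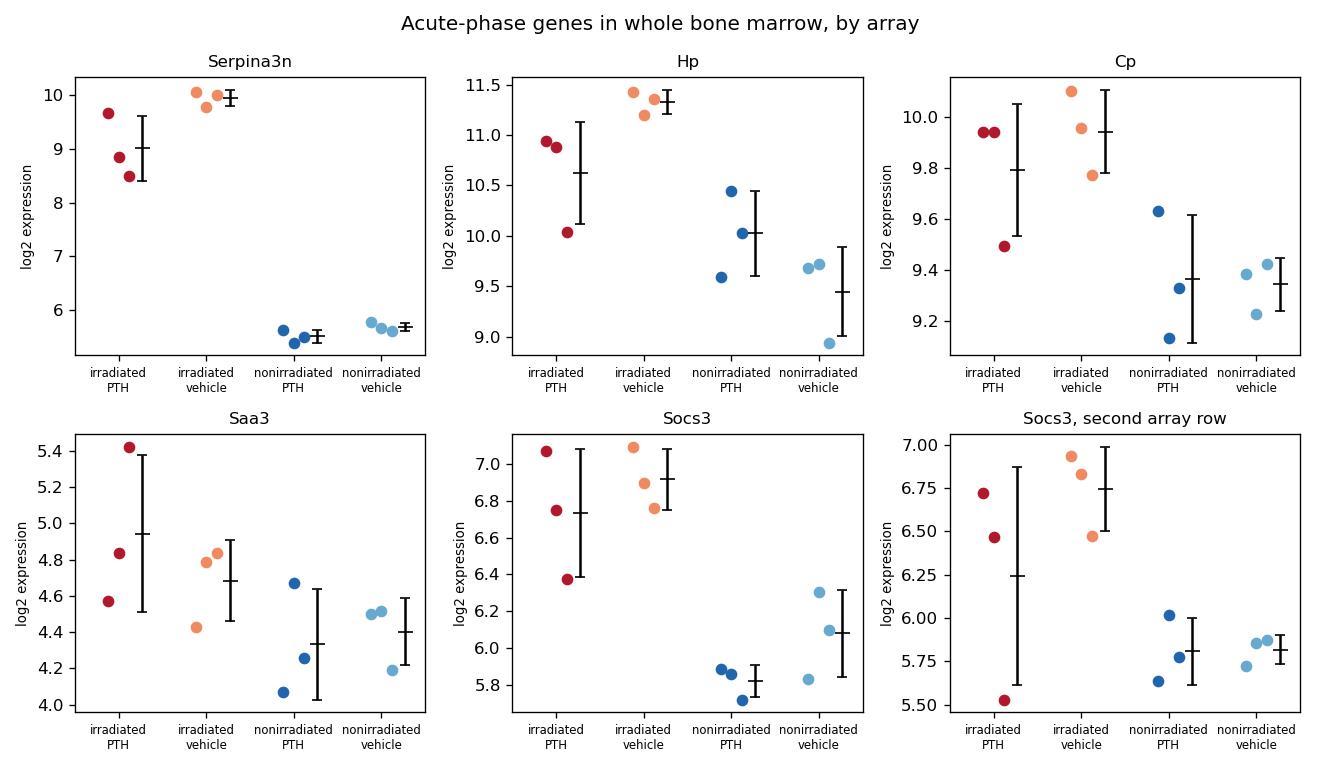
Log2 expression (vertical axes) of Serpina3n, Hp, Cp, Saa3 and both array rows of Socs3 on each array, by group (horizontal axes); points are arrays and black bars the mean ± SD (n = 3). The irradiated arrays of Serpina3n sit between 8.51 and 10.07 and the nonirradiated ones between 5.39 and 5.77, while those of Saa3 overlap between groups.

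Hp rose with irradiation in vehicle-treated mice and did not pass in PTH-treated mice. In PTH-treated mice its log2 expression was 10.94, 10.88 and 10.04 on irradiated arrays, against 9.60, 10.44 and 10.03 on nonirradiated arrays. There the groups overlapped, and the difference was 0.60 (SE 0.284, adjusted p = 0.390 in limma's test over all genes), which passed with array weights, at 0.98 (adjusted p = 0.0112). In vehicle-treated mice it was 11.43, 11.20 and 11.36 on irradiated arrays, against 9.69, 9.72 and 8.94 on nonirradiated arrays. These groups did not overlap, and the lowest array was nonirradiated vehicle replicate 3, which had a narrow range. The change was 1.88 (SE 0.284, adjusted p = 0.00446), or 3.69-fold, and it was 1.63 (SE 0.204, adjusted p = 0.00281) without both narrow-range arrays.

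Socs3, the feedback inhibitor of gp130 signals, rose in both treatments. Its brighter array row read 7.07, 6.75 and 6.38 on irradiated PTH arrays, against 5.89, 5.86 and 5.72 on nonirradiated PTH arrays. In vehicle-treated mice it read 7.09, 6.90 and 6.76 on irradiated arrays, against 5.83, 6.30 and 6.10 on nonirradiated arrays. All irradiated arrays lay above all nonirradiated ones. The change was 0.91 (SE 0.180, adjusted p = 0.0191) in PTH-treated mice and 0.84 (SE 0.180, adjusted p = 0.0323) in vehicle-treated mice in limma's test. The call in PTH-treated mice was lost with both rows of the gene averaged (0.67, adjusted p = 0.142) and with only the groups compared in the fit (adjusted p = 0.0810). The call in vehicle-treated mice was lost with sex as a term (0.71, adjusted p = 0.0607) and with only the groups compared (adjusted p = 0.0501).

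The Socs3 calls within a treatment rest on few arrays. Of 12 fits that each left out 1 array, 8 kept the call in PTH-treated mice, and it was lost without irradiated PTH replicate 1 or any 1 of the nonirradiated PTH arrays (adjusted p = 0.0666 to 0.0866). In vehicle-treated mice 4 of the 12 kept it, and it was lost without any 1 of the irradiated vehicle or nonirradiated PTH arrays, or without nonirradiated vehicle replicate 1 or 3 (adjusted p = 0.0507 to 0.127). The second, dimmer row of Socs3 read 6.72, 6.47 and 5.53 on irradiated PTH arrays and 6.94, 6.83 and 6.47 on irradiated vehicle arrays, against 5.63, 6.02 and 5.78 on nonirradiated PTH arrays and 5.72, 5.86 and 5.87 on nonirradiated vehicle arrays. On that row irradiated PTH replicate 3 fell below every nonirradiated array, and the change passed only when averaged over both treatments, at 0.68 (adjusted p = 0.0444), with 0.43 (adjusted p = 0.507) in PTH-treated and 0.93 (adjusted p = 0.0934) in vehicle-treated mice.

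Cp showed a smaller difference in the same direction. Its values were 9.94, 9.94 and 9.49 on irradiated PTH arrays and 10.10, 9.96 and 9.77 on irradiated vehicle arrays, against 9.63, 9.13 and 9.33 on nonirradiated PTH arrays and 9.38, 9.23 and 9.42 on nonirradiated vehicle arrays. The vehicle groups did not overlap and the PTH groups did. The difference was 0.43 (adjusted p = 0.270) in PTH-treated and 0.60 (adjusted p = 0.0970) in vehicle-treated mice, and it passed only when averaged over both, at 0.51 (SE 0.117, adjusted p = 0.0210). That call held in 5 of 12 fits without 1 array. The arrays whose removal ended it were nonirradiated vehicle replicate 2, both nonirradiated PTH replicates 2 and 3, both irradiated vehicle replicates 1 and 2, and both irradiated PTH replicates 1 and 2 (adjusted p = 0.0505 to 0.0580). With array weights the difference in vehicle-treated mice also passed, at 0.66 (adjusted p = 0.0136).

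Saa3 did not pass in any comparison of the fit reported here, though its difference averaged over both treatments passed with array weights, at 0.41 (adjusted p = 0.0393). It was 4.57, 4.84 and 5.42 on irradiated PTH arrays and 4.43, 4.79 and 4.84 on irradiated vehicle arrays, against 4.07, 4.67 and 4.26 on nonirradiated PTH arrays and 4.50, 4.52 and 4.19 on nonirradiated vehicle arrays. The groups overlapped throughout. The difference was 0.61 (95% interval 0.13 to 1.10, adjusted p = 0.234) in PTH-treated mice and 0.28 (95% interval -0.20 to 0.77, adjusted p = 0.654) in vehicle-treated mice. Its row was dim on these arrays, under the 30th percentile of mean values.

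Of the 4 measured members other than Serpina3n, 1 rose in PTH-treated mice (Socs3), where 0.692% of all genes did. In vehicle-treated mice 2 rose (Hp and Socs3), where 1.21% of all genes did. Averaged over both treatments 3 rose (Hp, Socs3 and Cp), where 2.51% of all genes did, and Hp then changed by 1.24 (SE 0.201, adjusted p = 0.00262) and Socs3 by 0.88 (SE 0.127, adjusted p = 0.00128). The median change of the 4 members was 0.60 in PTH-treated mice, against 0.0072 over all genes, and 0.72 in vehicle-treated mice, against -0.026 over all genes. Irradiated arrays lay above all nonirradiated ones for 1 of the 4 in PTH-treated mice, where 8.93% of all genes did so, and for 3 of the 4 in vehicle-treated mice, where 8.95% did. Over both treatments together 1 of the 4 (Socs3) did so, against 1.69% of all genes.

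Within irradiated marrow, PTH was set against vehicle. Serpina3n averaged 9.01 ± 0.600 in irradiated PTH marrow and 9.96 ± 0.146 in irradiated vehicle marrow (SD, n = 3 each), and every PTH array lay below every vehicle array. The difference was -0.95 (SE 0.231, 95% interval -1.45 to -0.44) and did not pass over all genes (adjusted p = 0.844 in limma's test, 0.00151 before adjustment). Leaving out irradiated PTH replicate 3, the narrow-range array, gave -0.69, and leaving out irradiated PTH replicate 1 gave -1.28 (adjusted p = 0.0811). The irradiated vehicle arrays also entered the choice of Serpina3n, so this value is not independent of that choice.

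Hp was also below on every PTH array. It averaged 10.62 ± 0.506 in irradiated PTH marrow and 11.33 ± 0.119 in irradiated vehicle marrow (SD, n = 3 each), a difference of -0.71 (SE 0.284, 95% interval -1.33 to -0.09, adjusted p = 0.844 in limma's test), which was -0.42 without irradiated PTH replicate 3. The differences of Cp, at -0.15, Socs3, at -0.18, and Saa3, at 0.26, had 95% intervals that held 0, and their groups overlapped. Of the 5 measured members 0 passed, as did 0% of all genes, while 3.81% of all genes had an unadjusted p under 0.05. Of all genes, 4.25% lay below without overlap.

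In nonirradiated marrow PTH and vehicle arrays overlapped for all 5 measured members. Their differences ran from -0.26 for Socs3 to 0.58 for Hp (95% interval -0.04 to 1.20), and 0 of 5 passed, as did 0% of all genes in limma's test, with 1.79% at an unadjusted p under 0.05. This comparison is also one of female-pattern with male-pattern arrays, so treatment and sex cannot be told apart in it.

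The difference between the irradiation changes in PTH-treated and vehicle-treated mice was tested as an interaction, which 0% of all genes passed and 5.49% reached at an unadjusted p under 0.05. It includes the comparison of nonirradiated PTH with nonirradiated vehicle arrays, in which treatment and sex cannot be told apart. The interaction was -1.29 for Hp (SE 0.401, 95% interval -2.16 to -0.41, adjusted p = 0.732 in limma's test). For Serpina3n it was -0.77 (SE 0.327), and -0.19 with sex as a term. These 2 values are a description only, since the irradiation values of Serpina3n entered its choice. The interactions of Cp, Socs3 and Saa3 were -0.17, 0.07 and 0.33, with intervals that held 0. The call of Hp in vehicle-treated mice alone is therefore not shown to differ between treatments.

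Other acute-phase genes were read from a list of 42, of which 38 were measured and 34 are not members. Of these 34, 2 rose in PTH-treated mice, 7 rose in vehicle-treated mice and 8 rose averaged over both, and 0 fell in any of these. Of all genes, 0.692% rose and 1.74% fell in PTH-treated mice, and 1.21% rose and 1.01% fell in vehicle-treated mice. Averaged over both, 2.51% of all genes rose and 3.59% fell. The list also holds Alb, Ttr, Trf and Apoa1, so its genes do not share a single expected direction and its medians mix them. The median change of the 34 genes was 0.17 in PTH-treated mice, against 0.0072 over all genes, and 0.11 in vehicle-treated mice, against -0.026 over all genes. The liver plasma protein genes Saa1, Saa2, Saa4, Orm1, Orm2, Orm3, Crp, Apcs, Alb and Ttr did not pass, nor did Lcn2, an iron-scavenging protein of neutrophils. The rows of Saa1, Saa2, Saa4, Crp, Apcs, Alb and Ttr were dim, under the 30th percentile of mean values, so a change in them could be missed. Those of Orm1, Orm2, Orm3 and Lcn2 were above it.

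Cfb, complement factor B, rose in both treatments. It was 8.33, 8.24 and 8.10 on irradiated PTH arrays and 8.80, 8.60 and 8.82 on irradiated vehicle arrays, against 7.22, 7.24 and 6.96 on nonirradiated PTH arrays and 7.14, 6.84 and 6.62 on nonirradiated vehicle arrays. Its groups did not overlap with irradiation, and the change was 1.08 (SE 0.149, adjusted p = 0.00251) in PTH-treated and 1.87 (SE 0.149, adjusted p = 0.000132) in vehicle-treated mice.

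Mt1 and Mt2 encode metallothioneins, metal-binding proteins that zinc and glucocorticoids induce. Mt1 rose by 0.84 (adjusted p = 0.0468) in PTH-treated and by 1.11 (adjusted p = 0.0112) in vehicle-treated mice. Mt2 differed by 0.89 (adjusted p = 0.0617) in PTH-treated mice and rose by 1.44 (adjusted p = 0.00497) in vehicle-treated mice. The Mt1 call in PTH-treated mice held in only 2 of 12 fits without 1 array, those without irradiated vehicle replicate 2 or 3, with adjusted p up to 0.160 in the others. In vehicle-treated mice it was lost without nonirradiated vehicle replicate 3 (adjusted p = 0.0515). Steap4, a metalloreductase induced by inflammatory cytokines, differed by 0.47 (adjusted p = 0.253) in PTH-treated mice and rose by 1.29 (adjusted p = 0.00258) in vehicle-treated mice.

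The other acute-phase calls, named after their values were seen, were the complement gene C4b, Serping1, the inhibitor of complement C1, and Il1rn, the interleukin-1 receptor antagonist. C4b differed by 0.88 (adjusted p = 0.108) in PTH-treated mice and rose by 1.57 (adjusted p = 0.00638) in vehicle-treated mice. Serping1 differed by 0.21 (adjusted p = 0.688) and rose by 1.12 (adjusted p = 0.00953) in the same mice. Il1rn differed by 0.38 (adjusted p = 0.362) in PTH-treated mice and rose by 0.96 (adjusted p = 0.0106) in vehicle-treated mice, a call lost without irradiated vehicle replicate 2, irradiated vehicle replicate 3 or nonirradiated vehicle replicate 3 (adjusted p up to 0.0523). Fga, a fibrinogen chain, passed only when averaged over both treatments, at 0.37 (adjusted p = 0.0355). That call held in 2 of 12 fits without 1 array, those without irradiated vehicle replicate 3 or irradiated PTH replicate 2, with adjusted p up to 0.0935 in the others, and it was lost with rows averaged (0.20, adjusted p = 0.255).

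**Figure D2:**
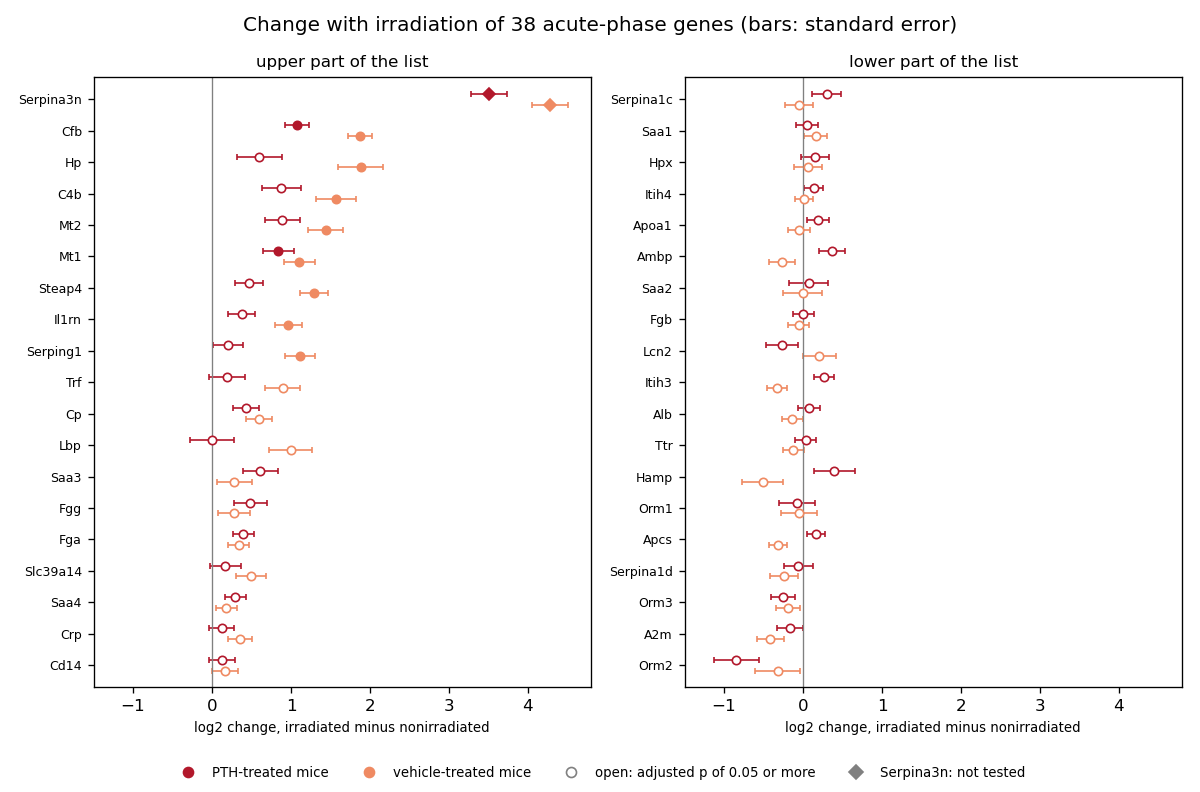
Log2 change with irradiation (horizontal axes, irradiated minus nonirradiated) of the 38 measured acute-phase genes, ordered by their change averaged over both treatments, in PTH-treated (dark red) and vehicle-treated (orange) mice; bars are the standard error, filled circles passed the test and diamonds were not tested. Serpina3n stands apart at 3.51 and 4.28, Cfb follows at 1.08 and 1.87, and most liver plasma protein genes lie near 0.

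The Serpina3 cluster itself did not move as a block. Of its 11 listed genes 3 were measured, and Serpina3b fell while Serpina3a did not pass. Serpina3b was 5.25, 5.72 and 5.77 on irradiated PTH arrays and 5.37, 4.98 and 4.96 on irradiated vehicle arrays, against 7.05, 7.35 and 6.61 on nonirradiated PTH arrays and 6.98, 6.66 and 6.39 on nonirradiated vehicle arrays. All its irradiated arrays lay below all nonirradiated ones, in the opposite direction to Serpina3n. It fell by 1.42 (SE 0.212, adjusted p = 0.00495) in PTH-treated and fell by 1.58 (SE 0.212, adjusted p = 0.00281) in vehicle-treated mice. Serpina3a differed by 0.14 (adjusted p = 0.685) and -0.11 (adjusted p = 0.779) in these mice. Of 12 other measured genes of the same serpin clade, such as Serpina1c and Serpina11, 0 passed in any of the irradiation comparisons, where 2.43% of all genes did in PTH-treated and 2.22% in vehicle-treated mice, while 11 of the 12 lay above 0 in PTH-treated and 3 in vehicle-treated mice. The rows of these 12 genes and of Serpina3a were dim, under the 30th percentile of mean values.

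Upstream ligands of the acute-phase response were read from a list of 10 IL-6 family cytokines, 8 of them measured. Il6 was 4.93, 4.87 and 5.25 on irradiated PTH arrays, against 3.79, 3.56 and 3.81 on nonirradiated PTH arrays. These groups did not overlap, and it rose by 1.29 (SE 0.237, adjusted p = 0.0131). In vehicle-treated mice Il6 was 4.32, 4.89 and 4.79 on irradiated arrays, against 4.50, 3.59 and 3.60 on nonirradiated arrays. Nonirradiated vehicle replicate 1 overlapped the irradiated arrays there, and the difference of 0.77 did not pass (adjusted p = 0.143) but did without that array (adjusted p = 0.0145). The call in PTH-treated mice was lost without nonirradiated PTH replicate 1 (adjusted p = 0.0509) or 2 (adjusted p = 0.0664). With sex as a term it was also lost (adjusted p = 0.141). The row of Il6 was dim, under the 30th percentile.

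Osm, oncostatin M, passed only when averaged over both treatments, at 0.59 (adjusted p = 0.0200). Leaving out nonirradiated vehicle replicate 3, irradiated PTH replicate 1, or either of irradiated vehicle replicates 2 and 3 ended that call (adjusted p up to 0.0594). The other 6 measured ligands, Il11, Lif, Ctf1, Clcf1, Il27 and Ebi3, did not pass in any of the irradiation comparisons.

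Of 6 measured receptor genes of this family, 1 rose, where 0.692% of all genes did in PTH-treated and 1.21% in vehicle-treated mice. Osmr, the oncostatin M receptor subunit that pairs with gp130, was 9.14, 8.81 and 8.65 on irradiated PTH arrays and 9.26, 9.15 and 8.80 on irradiated vehicle arrays, against 7.86, 7.82 and 7.81 on nonirradiated PTH arrays and 7.96, 7.42 and 7.63 on nonirradiated vehicle arrays. All irradiated arrays were higher, and it rose by 1.04 (adjusted p = 0.00830) in PTH-treated and by 1.40 (adjusted p = 0.00135) in vehicle-treated mice. Il6st, which encodes gp130, differed by 0.31 and 0.36 and did not pass (adjusted p = 0.373 and 0.300), nor did Lifr or Il27ra.

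Among 8 genes of the SOCS family, 3 passed as higher in both treatments: Socs3 (brighter row), Socs2 and Cish. The share of all genes that rose was 0.692% in PTH-treated and 1.21% in vehicle-treated mice. The Socs3 calls held in 8 and 4 of 12 fits without 1 array, and its second row passed in neither treatment. Socs2 and Cish are known targets of STAT5. Socs2 was 8.53, 8.38 and 8.76 on irradiated PTH arrays and 8.52, 8.48 and 8.77 on irradiated vehicle arrays, against 7.29, 6.94 and 7.31 on nonirradiated PTH arrays and 7.25, 7.19 and 7.48 on nonirradiated vehicle arrays. Its groups did not overlap with irradiation, and it rose by 1.38 (adjusted p = 0.000500) in PTH-treated and by 1.28 (adjusted p = 0.00110) in vehicle-treated mice. Cish was 8.58, 8.09 and 7.29 on irradiated PTH arrays and 8.22, 8.39 and 8.16 on irradiated vehicle arrays, against 6.09, 6.88 and 6.18 on nonirradiated PTH arrays and 6.10, 6.62 and 5.93 on nonirradiated vehicle arrays. It rose by 1.60 (adjusted p = 0.0158) in PTH-treated and by 2.04 (adjusted p = 0.00426) in vehicle-treated mice, and the first of these was lost without irradiated PTH replicate 1 or without either of nonirradiated PTH replicates 1 and 3 (adjusted p up to 0.0859). The other 5, Socs1, Socs4, Socs5, Socs6 and Socs7, did not pass, and the median change of the family was 0.02 in PTH-treated and 0.08 in vehicle-treated mice.

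Of 14 JAK-STAT3 signal genes, 0 rose in either treatment and 1 fell in PTH-treated mice, where 1.74% of all genes fell. The gene that fell was Ptpn6, a phosphatase that restrains cytokine signals, at -0.77 (adjusted p = 0.0499), a call that held in 1 of 12 fits without 1 array (without irradiated PTH replicate 2), with adjusted p up to 0.210 in the others. Averaged over both treatments Ptpn6 fell by 0.58 (adjusted p = 0.0187), a call lost without irradiated PTH replicate 1 or without replicate 2 of either vehicle group (adjusted p up to 0.0585). Pim1, a kinase gene that STAT factors induce, rose by 1.35 (SE 0.267, adjusted p = 0.00979) averaged over both treatments. On irradiated PTH arrays it read 10.15, 10.01 and 8.62, and replicate 3, the narrow-range array, lay among the nonirradiated values. Its difference was 1.09 (adjusted p = 0.203) in PTH-treated mice and 1.61 (adjusted p = 0.0509) in vehicle-treated mice. The value in vehicle-treated mice passed in 8 of 11 other settings (adjusted p down to 0.00326) and in 3 of 12 fits without 1 array, those without nonirradiated vehicle replicate 2, irradiated PTH replicate 1 or irradiated PTH replicate 3, so the count of 0 that rose there depends on the setting. The value in PTH-treated mice passed with array weights (adjusted p = 0.00138), without both narrow-range arrays (adjusted p = 0.00366) and without irradiated PTH replicate 3 alone (adjusted p = 0.0151).

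**Figure D3:**
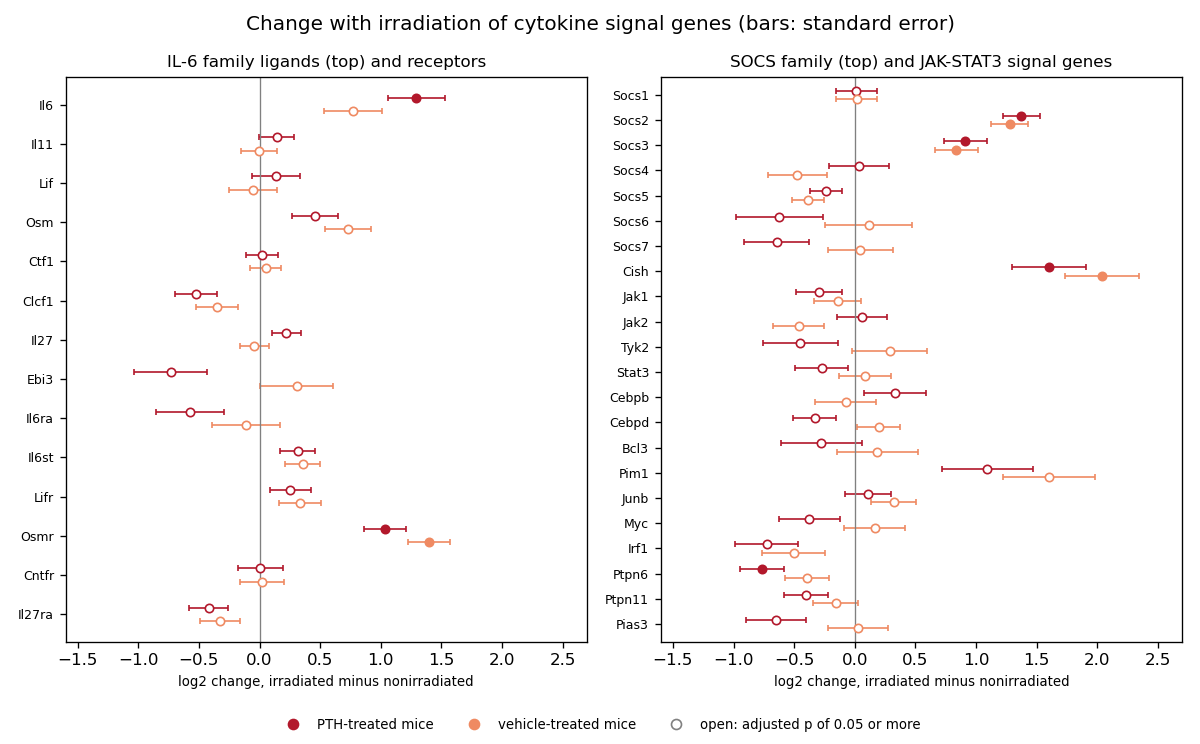
Log2 change with irradiation (horizontal axes, irradiated minus nonirradiated) of IL-6 family ligands and receptors (left) and of SOCS family and JAK-STAT3 signal genes (right) in PTH-treated (dark red) and vehicle-treated (orange) mice; bars are the standard error and filled circles passed the test. Socs2, Socs3, Cish and Osmr are filled in both treatments, and Il6 and Ptpn6 in PTH-treated mice alone.

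Il1b and Rel fell with irradiation in both treatments, and any relation to the acute-phase genes was not tested. Of 14 measured genes of the interleukin-1 and NF-kB response, 0 rose and 3 fell in PTH-treated mice, where 1.74% of all genes fell. In vehicle-treated mice 0 rose and 2 fell, where 1.01% of all genes fell. Il1b, interleukin-1 beta, fell by 2.34 (SE 0.240, adjusted p = 0.000297) in PTH-treated and fell by 2.74 (SE 0.240, adjusted p = 0.000256) in vehicle-treated mice. Rel, an NF-kB subunit, fell by 1.06 (adjusted p = 0.0123) and fell by 1.25 (adjusted p = 0.00515), the first of which was lost without nonirradiated PTH replicate 1 or 3 (adjusted p up to 0.0695). Tnfaip3, an inhibitor of NF-kB, fell by 0.80 in PTH-treated mice (adjusted p = 0.0212) and differed by -0.30 in vehicle-treated mice (adjusted p = 0.467). Its call was lost without any 1 of the nonirradiated PTH arrays (adjusted p up to 0.107). Averaged over both treatments 4 of the 14 fell, where 3.59% of all genes did. There 1 rose, the chemokine gene Ccl2, by 0.49 (adjusted p = 0.0441), where 2.51% of all genes rose. The Ccl2 call held in 3 of 12 fits without 1 array, those that dropped irradiated PTH replicate 3, irradiated vehicle replicate 1 or nonirradiated vehicle replicate 2, with adjusted p up to 0.109 in the others.

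Of 14 glucocorticoid-responsive genes, 1 rose in PTH-treated mice, where 0.692% of all genes did. In vehicle-treated mice 3 rose, where 1.21% of all genes did, and 0 fell in either treatment. Mt1 and Mt2, which are also on the acute-phase list, were among those that rose. The other was Errfi1, an inhibitor of the epidermal growth factor receptor, which differed by 0.45 (adjusted p = 0.316) in PTH-treated mice and rose by 0.86 (adjusted p = 0.0340) in vehicle-treated mice, this call holding in 2 of 12 fits without 1 array, those without irradiated PTH replicate 1 or 3. Nr3c1, the glucocorticoid receptor gene, fell by 0.38 (adjusted p = 0.0378) averaged over both treatments, a call that held in 2 of 12 fits without 1 array, those without nonirradiated vehicle replicate 3 or irradiated PTH replicate 3, with adjusted p up to 0.105 in the others.

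Of 9 protease genes listed as possible targets of Serpina3n, 1 rose, where 0.692% of all genes did in PTH-treated and 1.21% in vehicle-treated mice. The list includes Mmp9, a metalloprotease gene, beside serine protease genes. Gzmb, the granzyme B gene, was 6.16, 6.36 and 5.97 on irradiated PTH arrays and 6.46, 6.65 and 6.65 on irradiated vehicle arrays, against 5.14, 5.41 and 5.51 on nonirradiated PTH arrays and 5.45, 5.68 and 5.30 on nonirradiated vehicle arrays. All irradiated arrays were higher. It rose by 0.81 (adjusted p = 0.0136) in PTH-treated mice, a call lost without nonirradiated PTH replicate 1 (adjusted p = 0.0758) or irradiated PTH replicate 1 (adjusted p = 0.0505), and by 1.11 (adjusted p = 0.00224) in vehicle-treated mice. Gzma, Elane and Cela1 did not pass.

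The genes whose pattern over the 12 arrays was most like that of Serpina3n were found by the root mean square difference of values centred on each gene's mean. They were Lipg at 0.551, Ccl12 at 0.570, the interferon-inducible gene Ifi205 at 0.725, the cytochrome P450 gene Cyp2f2 at 0.774, Ankrd36 at 0.794 and the lipid hydrolase gene Abhd6 at 0.811. The members lay farther off, with Hp at 1.39, Socs3 at 1.54, Cp at 1.73 and Saa3 at 1.84. The values were not scaled, so a gene with a smaller change than Serpina3n lies farther off by this measure. These distances therefore do not compare the shape of the patterns. Set against irradiated vehicle marrow, irradiated PTH marrow averaged lower for 5 of these 6 genes, by -1.13 for Abhd6, -1.11 for Cyp2f2, -0.40 for Lipg, -0.32 for Ifi205 and -0.21 for Ccl12, and higher for Ankrd36, by 0.40. Since Serpina3n was chosen for its rise, large rises of the like genes follow from the measure. The irradiated PTH and irradiated vehicle arrays also entered the measure, so the direction between them is not independent of the choice of these genes.

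Adipocyte markers were higher in irradiated marrow in both treatments, and macrophage markers only in part. The mean log2 level of 15 measured adipocyte markers was 7.99 to 8.27 on irradiated PTH arrays and 8.58 to 8.71 on irradiated vehicle arrays, against 7.27 to 7.44 on nonirradiated PTH arrays and 7.40 to 7.60 on nonirradiated vehicle arrays. All irradiated PTH arrays were below the irradiated vehicle ones, as for Serpina3n and Hp. With irradiation 4 of the 15 rose in PTH-treated mice, where 0.692% of all genes did. In vehicle-treated mice 9 rose, where 1.21% of all genes did. The part of these markers in the acute-phase values was not tested. Of 16 macrophage markers 1 rose in PTH-treated and 2 in vehicle-treated mice. Their mean level was 8.07 to 8.67 on irradiated PTH arrays, overlapping 8.28 to 8.44 on nonirradiated PTH arrays. It was 8.60 to 8.82 on irradiated vehicle arrays, above 8.03 to 8.43 on nonirradiated vehicle arrays. Among 12 endothelial and 14 stromal markers 0 rose in PTH-treated mice and 1 of each list in vehicle-treated mice. Among 7 osteoblast and 6 monocyte markers 0 rose in either treatment. The part of these markers was not tested either.

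B-lineage markers fell with irradiation, and T and NK cell markers did so only in part. The mean log2 level of 14 measured B-lineage markers was 6.66 to 7.18 on irradiated PTH arrays and 7.06 to 7.42 on irradiated vehicle arrays, against 9.22 to 9.55 on nonirradiated PTH arrays and 9.11 to 9.44 on nonirradiated vehicle arrays. Of these, 13 fell in PTH-treated mice, where 1.74% of all genes did, and 12 fell in vehicle-treated mice, where 1.01% did. Their median changes were -2.45 and -1.83, and 0 rose. Of 12 measured T and NK cell markers 3 (Cd3e, Cd2 and Cd8a) fell in PTH-treated and 1 (Cd2) fell in vehicle-treated mice, and 0 rose, their median changes being -0.51 and -0.21. Changes were above 0 for 2 of the 12 in PTH-treated mice, at up to 0.46, and for 3 in vehicle-treated mice, at up to 0.70. The B-lineage levels fell along with Serpina3b, Rel and Il1b, while Gzmb, a gene of cytotoxic lymphocytes, rose. The part of lymphoid markers in any of these values was not tested.

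Markers of the liver and of neutrophils showed 0 rises within either treatment. The mean level of 11 hepatocyte markers was 4.97 ± 0.0880 in irradiated PTH and 4.90 ± 0.0451 in irradiated vehicle marrow, against 4.91 ± 0.0596 in nonirradiated PTH and 4.98 ± 0.133 in nonirradiated vehicle marrow (SD, n = 3 each). Of the 11, 0 passed in either treatment, and 1, Fga, which is also on the acute-phase list, rose averaged over both. Except for Apoa1, Apoa2 and Tat, the rows of these markers were dim, under the 30th percentile of mean values. Of 18 neutrophil markers 0 rose and 2, Csf3r and Ly6g, fell in PTH-treated mice, where 1.74% of all genes fell. In vehicle-treated mice 0 of the neutrophil markers passed. The part of neutrophil markers in the level of Hp, which maturing granulocytes also make, was not tested. The 6 measured erythroid markers averaged 10.62 and 10.76 in irradiated PTH and irradiated vehicle marrow and 10.62 and 10.52 in the nonirradiated PTH and nonirradiated vehicle groups, and 0 of the 6 passed.

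**Figure D4:**
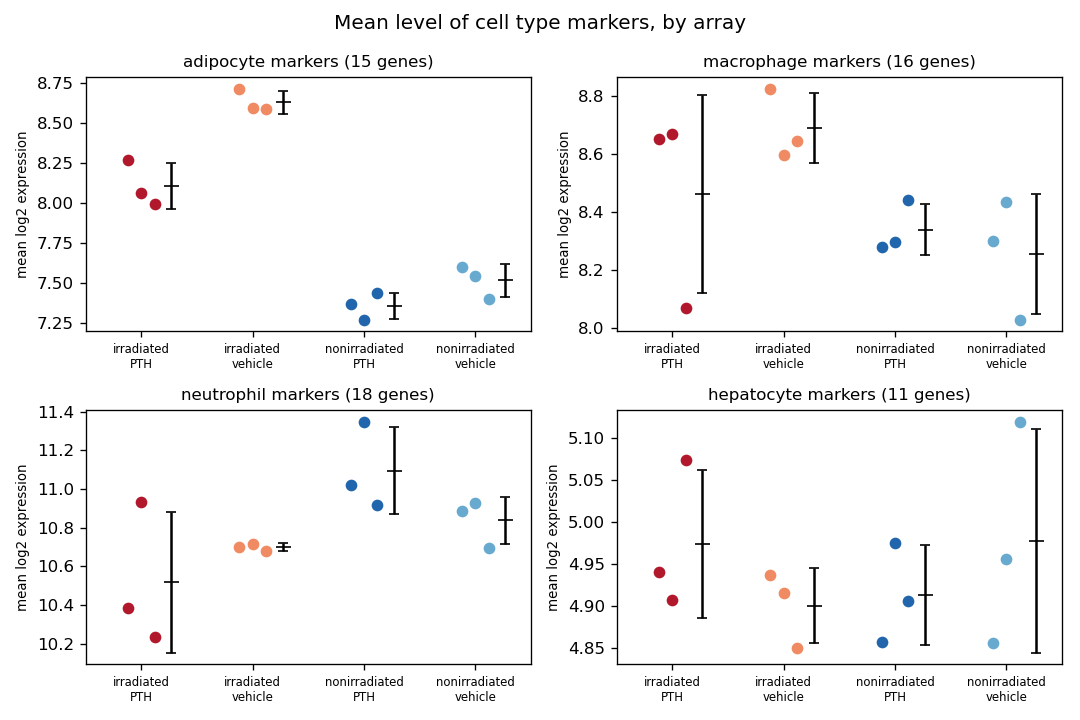
Mean log2 expression (vertical axes) of adipocyte, macrophage, neutrophil and hepatocyte markers on each array, by group (horizontal axes); points are arrays and black bars the mean ± SD (n = 3). Adipocyte markers are highest on the irradiated vehicle arrays, at 8.58 to 8.71, and hepatocyte markers overlap between all groups.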

How the data were processed

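Per the labels' protocols, total RNA of whole marrow was amplified to biotinylated cDNA. The submitters' processing notes name affy, RMA and limma, with no roles or versions. The authors' deposited values are on the log2 scale, as their range and the name RMA show. Whether all arrays were normalized together, and the genome build, are not given in the sources used here.

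Of 35556 rows, 21789 had 1 gene symbol, 1621 had several and 12146 were not listed; symbols were updated to RefSeq's, with 91 rows unmatched. For the 999 genes with several rows the row with the highest mean was used, giving 19938 genes. All 12 arrays were fitted as 4 group means with limma 3.58.1 in R 4.3.3, and a gene passed at a Benjamini-Hochberg adjusted p under 0.05 over all genes. The fit was tested on simulated data. The number of arrays limits the precision.

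Members and gene lists were chosen with earlier results of these data known, and cell type markers likewise. Named genes were all members, up to 4 genes of each pathway list with the smallest p, all of the Serpina3 cluster, SOCS family and IL-6 ligands, and the 6 genes most like Serpina3n. The settings varied were array weights, the variance model, scaling, dim genes, rows, arrays in the fit, sex, narrow-range arrays, the replicate block and leaving out each array. Labels share replicate numbers 1 to 3 but do not say that these pair the arrays. Correlations of deviations from group means between same-numbered arrays ran from -0.650 to 0.596 over all group pairs. Between the irradiated groups alone they ran from 0.144 to 0.570, and these groups were therefore also fitted with the number as a block. Arrays of unlike number in these groups ran from -0.509 to 0.396, so the ranges overlap. Replicate 1 is also the only female-pattern array in each of them, so number and sex are partly tied there.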

Additional observations from a re-analysis of the deposited data

How the results depend on the processing

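The count of members that rose in PTH-treated mice, 1 as reported, was 2 with array weights, 0 with rows averaged and 0 with only the groups compared, and 0 to 1 when 1 array was left out. In vehicle-treated mice it was 2 as reported, 1 with only the groups compared and 1 with sex as a term, and 1 to 3 when 1 array was left out. Averaged over both treatments it was 3, 4 with array weights, which added Saa3 (0.41, adjusted p = 0.0393), and 2 to 3 when 1 array was left out. Hp in vehicle-treated mice and averaged, and Serpina3b, Cfb, Osmr and Socs2 in both treatments, kept their calls in all alternatives run. Among other named genes, calls in PTH-treated mice ended for Cish, Rel, Tnfaip3, Gzmb and Ptpn6 with only the groups compared, for Mt1, Il6, Tnfaip3, Gzmb and Ptpn6 with sex as a term, for Mt1 and Ptpn6 with a mean-variance trend or without both narrow-range arrays, and for Ptpn6 with robust empirical Bayes. Calls in vehicle-treated mice ended for Mt1 with only the groups compared, and for Errfi1 with a mean-variance trend, sex as a term or the replicate block (adjusted p = 0.0514). Averaged calls ended for Fga, Ccl2 and Nr3c1 with sex as a term, for Fga, Ccl2 and Osm without both narrow-range arrays, for Fga with rows averaged, and for Nr3c1 with a mean-variance trend, arrays centred on the median or the replicate block (adjusted p = 0.0514). Array weights added calls for Hp, Pim1, Mt2, C4b, Errfi1, Ccl2 and Nr3c1 in PTH-treated mice, and for Cp, Pim1, Il6, Osm, Fga and Nr3c1 in vehicle-treated mice. The replicate block changed no call of a member: in the irradiated groups alone, a choice made after seeing the data, Serpina3n differed by -0.95 (SE 0.203, adjusted p = 0.507 in limma's test) and Hp by -0.71 (SE 0.200, adjusted p = 0.507), with 0 members called. Directions turned only for differences that never passed. For PTH in nonirradiated mice, Saa3 (-0.07) was 0.00077 with quantile normalization repeated, 0.40 with sex as a term and -0.24 to 0.062 when 1 array was left out, and Cp (0.02) was -0.031 with arrays centred on the median, -0.042 with quantile normalization repeated, -0.21 with sex as a term and -0.11 to 0.14 when 1 array was left out. For the interaction, sex as a term gave -0.14 for Saa3 and 0.058 for Cp, and Socs3 was -0.21 with rows averaged and -0.094 to 0.25 when 1 array was left out. The cause of these turns was not tested. Saa3 was not tested with dim genes left out. Over all genes, 485 passed in PTH-treated mice (200 to 1148 in other fits, 225 to 531 without 1 array), 442 in vehicle-treated mice (304 to 1149, and 211 to 762) and 1216 averaged (1084 to 2517, and 822 to 1393).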
